A study of Mus musculus with 6 samples.

Results

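Granzymes and perforin are the lethal cargo of cytotoxic lymphocytes, and the transcripts of 10 of these genes were followed through the tumors of mice given a nanogel that carries glucose oxidase and doxorubicin. The members were chosen by gene symbol and no measured value entered the rule, but earlier results of these data were known. They comprise Gzma, Gzmb, Gzmc, Gzmd, Gzme, Gzmf, Gzmg, Gzmk, Gzmn and Prf1. They are 10 of the 34685 genes that carry a symbol in the deposited normalized table, and 10 of the 55536 genes of the raw table. Gzmb, Gzmc, Gzmd, Gzme, Gzmf, Gzmg and Gzmn lie together on chromosome 14 and are called the cluster here, while Gzma, Gzmk and Prf1 lie on other chromosomes.

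The tumors grew from HCA-1, a single murine cell line of hepatocellular carcinoma (HCC), set into the liver of male C3H/HeNCrNarl mice aged 6 to 8 weeks. The 3 control libraries, numbered 5, 6 and 7, came from untreated tumors. The 3 libraries numbered 1, 2 and 5 came from tumors treated with GOx-DOX-LGP, a lipid, gelatin and protamine nanogel with glucose oxidase (GOx) in its core and doxorubicin (DOX) in its shell. The labels place intravenous dosing on days 18, 19 and 20 but the RNA analysis on day 17 after 3 h of circulation, and these days conflict. The supporting methods, in their text on PCR of tumor RNA, place harvest on the day after the last dose, and their text on sequencing gives no day. They do not say that each library is a separate mouse, and the p-values measure the spread between libraries, which may be partly technical.

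Cytotoxic T cells and NK cells store granzymes with perforin in secretory granules. Perforin, encoded by Prf1, is a pore-forming protein that lets granzymes reach the cytosol of a target cell, where granzyme B cleaves proteins after aspartate and starts apoptosis. Granzymes A and K cleave after basic residues, and mice carry further granzymes, C to G and N, in the same cluster as granzyme B.

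The cluster spans 144.635 kb of chromosome 14 (GRCm38, 56117626 to 56262260), and the 7 members are its only protein-coding genes among 13 annotated genes in GENCODE M21. All 7 are read from the minus strand, in the order Gzme, Gzmd, Gzmg, Gzmn, Gzmf, Gzmc and Gzmb from the lower coordinate. The coding sequences of Gzmd, Gzme, Gzmf and Gzmg were between 85.4% and 94.8% identical to each other, with Gzmd and Gzme the closest pair. Gzmc shared 75.6% to 76.4% with these 4 genes, Gzmn 81.5% to 83.1%, and Gzmb 71.2% to 77.9% with the rest of the cluster. Gzma (chromosome 13, 113093825 to 113100981) and Gzmk (chromosome 13, 113171608 to 113225908) were 61.6% to 66.2% identical to the cluster genes. Prf1 (chromosome 10, 61297833 to 61304680, plus strand) is no granzyme.

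The stretches just before the transcription starts show how the cluster divides. The lines below give, 5′ to 3′ on the gene's strand, the 150 bases that precede the RefSeq start of each cluster gene in GRCm38.p6, with Gzmb at chr14:56262335-56262484, Gzmc at chr14:56234658-56234807, Gzmd at chr14:56132594-56132743, Gzme at chr14:56120626-56120775, Gzmf at chr14:56211408-56211557, Gzmg at chr14:56159580-56159729 and Gzmn at chr14:56174600-56174749. Capitals mark the letters TGTGGT, the core read by RUNX factors, which act in cytotoxic lymphocytes. They are sequences of the reference strain, and C3H alleles may differ.
Gzmb: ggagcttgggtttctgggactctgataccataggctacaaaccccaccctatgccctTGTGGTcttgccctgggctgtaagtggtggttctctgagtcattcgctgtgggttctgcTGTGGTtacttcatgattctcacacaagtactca
Gzmc: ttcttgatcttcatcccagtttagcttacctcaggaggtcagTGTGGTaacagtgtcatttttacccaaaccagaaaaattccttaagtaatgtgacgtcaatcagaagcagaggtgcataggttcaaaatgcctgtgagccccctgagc
Gzmd: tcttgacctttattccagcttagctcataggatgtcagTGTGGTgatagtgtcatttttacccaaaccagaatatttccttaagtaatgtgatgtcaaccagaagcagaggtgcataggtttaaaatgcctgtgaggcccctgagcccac
Gzme: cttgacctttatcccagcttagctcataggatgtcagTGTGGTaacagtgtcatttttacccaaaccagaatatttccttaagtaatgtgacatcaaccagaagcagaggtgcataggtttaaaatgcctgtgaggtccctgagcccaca
Gzmf: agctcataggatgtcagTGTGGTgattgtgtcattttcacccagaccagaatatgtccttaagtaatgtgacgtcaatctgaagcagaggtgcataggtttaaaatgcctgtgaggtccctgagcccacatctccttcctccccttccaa
Gzmg: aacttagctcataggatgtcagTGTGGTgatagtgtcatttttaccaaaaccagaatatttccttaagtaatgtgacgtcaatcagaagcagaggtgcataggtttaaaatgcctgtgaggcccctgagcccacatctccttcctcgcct
Gzmn: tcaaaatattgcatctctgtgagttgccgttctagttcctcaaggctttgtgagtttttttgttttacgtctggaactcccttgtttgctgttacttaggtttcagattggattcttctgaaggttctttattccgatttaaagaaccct
Between Gzmc, Gzmd, Gzme, Gzmf and Gzmg these windows were 88.0% to 97.0% identical over 10 pairs, with Gzmd and Gzmg the closest. Gzmb was 52.6% to 59.5% identical to those 5 genes, and Gzmn 54.8% to 64.1% identical to the other cluster genes. The windows of Gzma, Gzmk and Prf1 were 54.8% to 70.7% identical to those of the cluster. The 5 similar genes shared the block around the capital letters, and Gzmb had those letters at 2 places on its own strand. For Gzmb, Gzmk and Prf1, the bases just after the RefSeq start were not found in a GENCODE M21 transcript of the gene. The Gzmb window, from 56262335, lay beyond the GENCODE gene, which ends at 56262260. The Gzmk window, at 113180966 to 113181115, lay inside the GENCODE gene, which ends at 113225908. All windows depend on the annotation, and those of different genes may not be at matching positions.

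Over 250 bases before the start and on both strands, TGTGGT was found in 8 of the 10 members, all but Gzmk and Gzmn, and in 14.1% of 32851 mouse promoters of the same length. The ETS letters CAGGAAGT were found in 6 members, Gzmc, Gzmd, Gzme, Gzmf, Gzmg and Prf1, and in 2.69% of all promoters. The cyclic AMP response element TGACGTCA was found in Gzmc, Gzmf and Gzmg and in 1.55% of all promoters. The AP-1 letters TGANTCA, found in 6.75% of all promoters, occurred in Gzmb alone among the members. Single members held TCACACC of the T-box factors (Gzmk, 3.33% of all promoters), TGGAAA of NFAT (Gzma, 18.6%) and TATAAA (Gzmn, 12.4%), and 0 members held the STAT letters TTCNNNGAA, which were in 7.02%. No searched motif lies within another, and members with similar promoters are not independent matches.

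Library totals lay between 15529940 and 18401178 counts. Levels are given in CPM, counts relative to library sizes scaled with the TMM method, whose factors ran from 0.569 (control 7) to 1.241 (control 5). On this scale 3 counts, taken as the lowest detectable level, correspond to 0.132 to 0.323 CPM, which covers counting error only. Before any result, 2 libraries must be set apart. The summed level of 14 hepatocyte markers was 140912 CPM in control 6 and 220860 CPM in control 7, against 765 CPM in control 5 and 1644 to 4111 CPM in the treated tumors. The liver tumor markers summed to 686 to 1104 CPM in control and 1196 to 1387 CPM in treated tumors, without overlap and mostly from the keratin genes Krt8 and Krt18. Afp, at 2.25 to 13.2 CPM, and Gpc3, at 0.784 to 2.29 CPM, were low and went the other way, with log2 fold changes of -1.26 and -1.06. Only control 5 therefore resembled the treated tumors in its hepatocyte transcripts. Beyond a fit with these markers as a covariate, given at the end, the part of this difference in the results was not tested.

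GOx-DOX-LGP tumors held higher levels of 8 members in every library than any control library did, with fitted differences between 2.16 (Gzmk) and 4.10 (Gzmf) on the log2 scale. Over all genes kept by the filter on low counts, 8.87% were separated in this direction. Several of the 8 members passed that filter through the treated libraries, where they were high. None of the 8 differences passed the adjusted threshold of edgeR's quasi-likelihood test. With DESeq2 7 passed, where it called 0.994% of the genes with an adjusted p as higher. Of the cluster, Gzmc, Gzmd, Gzme, Gzmf and Gzmg showed fitted differences of 3.38 or more, while Gzmb, Gzmk and Prf1 lay between 2.16 and 2.51. Gzma overlapped between the groups and Gzmn was close to absent.

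**Figure D1:**
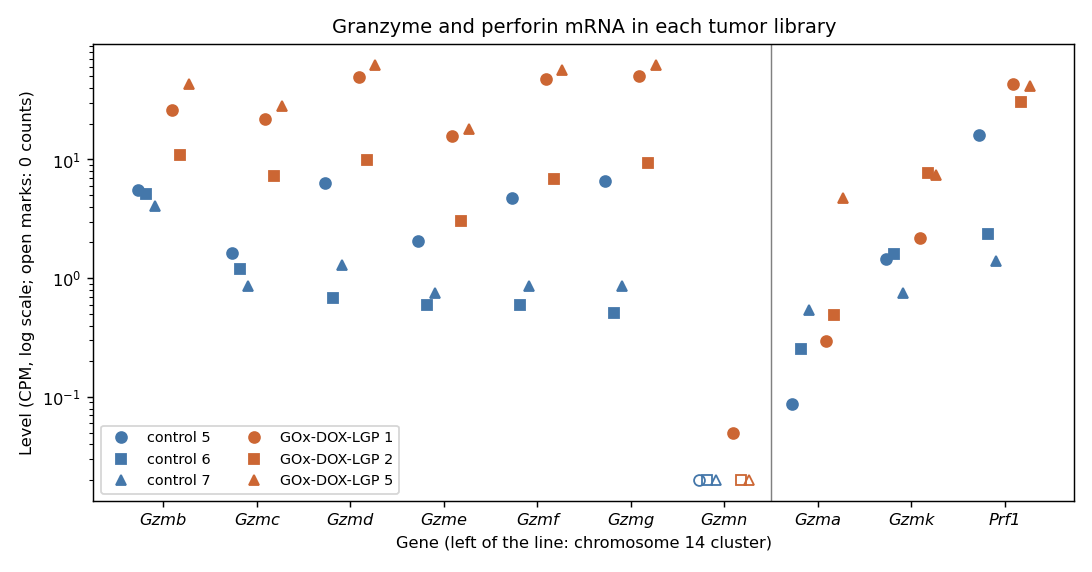
Level of each member in each library in CPM on a log scale, with control libraries in blue and GOx-DOX-LGP libraries in orange, 1 mark per library, and open marks at the bottom for 0 counts. Control 5 was the highest control in Prf1 and in each gene from Gzmb to Gzmg, GOx-DOX-LGP 2 was the lowest treated library in each gene from Gzmb to Gzmg, and the groups overlapped only in Gzma and Gzmn.

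Gzmb (ENSMUSG00000015437) encodes granzyme B, the main apoptosis-inducing granzyme. Controls 5, 6 and 7 stood at 5.48, 5.09 and 4.09 CPM, and treated tumors 1, 2 and 5 at 26.0, 10.9 and 43.6 CPM. The control libraries were close together and the lowest treated library was 1.98-fold above the highest control. The log2 fold change was 2.45 ± 0.53 (standard error, n = 3 per group), with an unadjusted p of 0.0036. Adjusted over all genes, edgeR's quasi-likelihood test gave 0.260 and DESeq2 gave an adjusted p of 0.0013.

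Gzmc (ENSMUSG00000079186), which encodes granzyme C, a granzyme of strongly activated killer cells, showed the widest gap between the groups. Controls 5, 6 and 7 had 1.62, 1.19 and 0.861 CPM, and treated tumors 1, 2 and 5 had 21.8, 7.30 and 28.4 CPM. The lowest treated library was 4.50-fold above the highest control, a larger separation than in any other member. Its log2 fold change was 3.94 ± 0.61 (standard error, n = 3 per group), with an unadjusted p of 0.00066. edgeR gave an adjusted p of 0.260 and DESeq2 one of 1.1e-05.

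Gzmd (ENSMUSG00000059256) encodes granzyme D. Its level was 6.32, 0.678 and 1.29 CPM in controls 5, 6 and 7, against 49.5, 9.94 and 62.7 CPM in treated tumors 1, 2 and 5. Control 5 was 9.31-fold above control 6 and only 1.57-fold below treated tumor 2. The log2 fold change was 3.83 ± 1.08 (standard error, n = 3 per group), and adjusted p-values were 0.260 (edgeR) and 0.0029 (DESeq2).

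Gzmg (ENSMUSG00000040284), for granzyme G, had levels close to those of Gzmd in control 5 and the treated tumors, and lower ones in controls 6 and 7, where both genes had few counts. The levels of Gzmg were 6.54, 0.509 and 0.861 CPM in controls 5, 6 and 7, against 50.7, 9.31 and 62.3 CPM in treated tumors 1, 2 and 5. Here control 5 exceeded control 6 by 12.8-fold, the widest spread between these libraries in any fitted member, and the log2 fold change was 3.89 with a standard error of 1.20 (n = 3 per group). edgeR gave an adjusted p of 0.260 and DESeq2 one of 0.0063.

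Gzmf (ENSMUSG00000015441), for granzyme F, had the largest fitted difference of the members, with a log2 fold change of 4.10 ± 1.13 (standard error, n = 3 per group). Controls 5, 6 and 7 had 4.69, 0.594 and 0.861 CPM, and treated tumors 1, 2 and 5 had 47.4, 6.91 and 56.2 CPM. The treated tumors also differed from each other by up to 8.13-fold. edgeR gave an adjusted p of 0.260 and DESeq2 one of 0.0020.

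Gzme (ENSMUSG00000022156), for granzyme E, had the lowest mean level of the 4 most similar genes in both groups. Its values were 2.06, 0.594 and 0.753 CPM in controls 5, 6 and 7, against 15.9, 3.04 and 18.0 CPM in treated tumors 1, 2 and 5. The highest control and the lowest treated library were 1.47-fold apart, and the log2 fold change was 3.38 ± 0.85 (standard error, n = 3 per group). edgeR gave an adjusted p of 0.260 and DESeq2 one of 0.0018.

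Gzmn (ENSMUSG00000015443) completes the cluster. It had 0 counts in the 3 control libraries and in treated tumors 2 and 5, and 1 count in treated tumor 1. At this depth it was at or below the lowest detectable level in both groups, so no fold change is given.

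Prf1 (ENSMUSG00000037202) encodes perforin. Controls 5, 6 and 7 had 16.1, 2.37 and 1.40 CPM, and treated tumors 1, 2 and 5 had 43.4, 30.2 and 41.8 CPM. The treated libraries lay within 1.44-fold of each other, the narrowest spread of the members fitted, whereas control 5 was 6.80-fold above control 6 and 11.5-fold above control 7. Its log2 fold change was 2.51 ± 0.93 (standard error, n = 3 per group), with an unadjusted p of 0.035. edgeR gave an adjusted p of 0.268 and DESeq2 one of 0.051.

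Gzmk (ENSMUSG00000042385), which encodes granzyme K, a granzyme of memory-like T cells, followed another order among the treated tumors. Controls 5, 6 and 7 had 1.45, 1.61 and 0.753 CPM, and treated tumors 1, 2 and 5 had 2.17, 7.69 and 7.39 CPM. Treated tumor 2, the lowest for every detected cluster gene, was the highest for Gzmk by a small margin over treated tumor 5. Treated tumor 1 was the lowest. The log2 fold change was 2.16 ± 0.60 (standard error, n = 3 per group), and adjusted p-values were 0.260 (edgeR) and 0.011 (DESeq2).

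Gzma (ENSMUSG00000023132), for granzyme A, was sparse. It had 2, 3 and 5 counts in controls 5, 6 and 7, and 6, 10 and 91 counts in treated tumors 1, 2 and 5, or 0.0877, 0.254 and 0.538 CPM against 0.297, 0.490 and 4.73 CPM. Only treated tumor 5 was above every control, and the two-sided exact permutation test over the 6 libraries gave a p of 0.4. The filter on low counts did not keep it, and a fit of all genes with any count gave a log2 fold change of 2.80 ± 1.20 (standard error), where edgeR's adjusted p was 0.438.

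The filter kept 8 of the 10 members among 15374 genes, and several of them passed it through the treated libraries, where they were high, so that counts over the kept members describe them and no more. None had an edgeR adjusted p under 0.05, and over all genes 0 did (0%), with 2626 genes at an unadjusted p under 0.05. All 8 kept members were higher at an unadjusted p under 0.05, where 2.76% of all genes were. DESeq2 called 7 of the 8 higher, all but Prf1, where it called 0.994% of the genes to which it gave an adjusted p. The groups did not overlap in 8 of 8 kept members and 8.87% of all genes were separated in this direction. For a single gene the exact permutation test gave p = 0.1 in each of the 8, which is the smallest that 3 libraries against 3 allow.

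By size of the fitted difference, Gzmf, Gzmc, Gzmg, Gzmd and Gzme took ranks 2 to 6 of 15374 genes. Prf1 ranked 30, Gzmb 35 and Gzmk 66. The median was 3.86 over the 6 cluster genes fitted, 2.33 over Gzmk and Prf1, the only ones fitted of the 3 genes outside the cluster, and 0.02 over all genes. The summed counts of the cluster, fitted as a single feature, gave a log2 fold change of 3.58 with a standard error of 0.83.

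**Figure D2:**
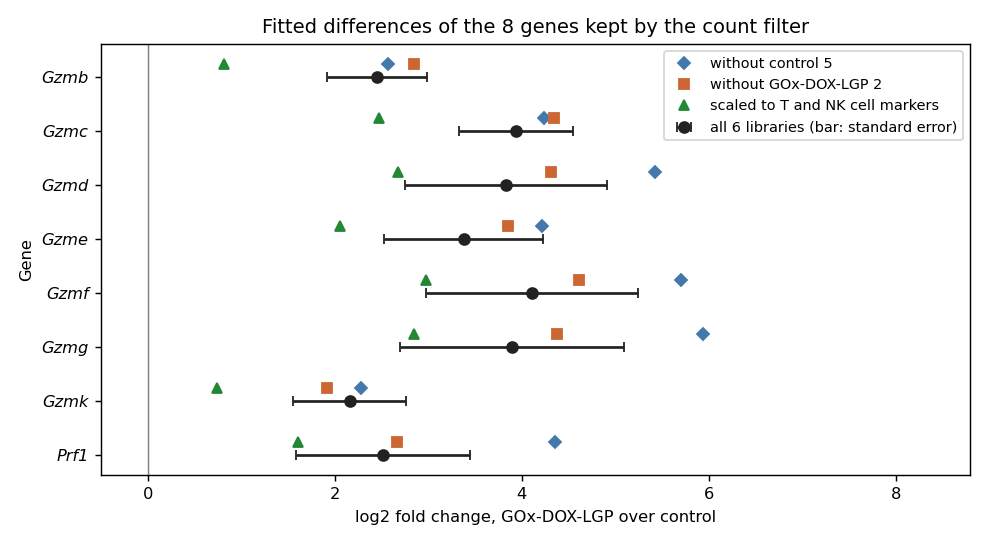
Fitted log2 fold change of GOx-DOX-LGP over control for the 8 members kept by the filter, as black points with standard errors, beside the values without control 5 (blue diamonds), without GOx-DOX-LGP 2 (orange squares) and with libraries scaled to T and NK cell markers (green triangles). Every value lies above 0, from 0.74 for Gzmk on the marker scale to 5.94 for Gzmg without control 5.

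The edgeR calls turned on control 5. Without it, that fit called all 8 members, when it called 22.1% of all genes as higher, and without either of the other control libraries it called 0. With all 6 libraries, limma voom with sample quality weights called 7 members, all but Gzmk, when it called 29.2% of all genes as higher. With control 5 left out, the log2 fold change grew from 3.89 to 5.94 in Gzmg, from 3.83 to 5.42 in Gzmd, from 4.10 to 5.70 in Gzmf and from 2.51 to 4.36 in Prf1, but only from 2.45 to 2.57 in Gzmb. With controls 6 and 7 left out instead, so that control 5 stood alone and was assumed to vary like the treated libraries, the values were 2.65 for Gzmg, 2.70 for Gzmd, 2.98 for Gzmf, 3.57 for Gzmc, 2.30 for Gzmb and 1.27 for Prf1. With control 5 as the only control library, that fit is given for its effect sizes alone.

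Per length, the order of the members varied between libraries as well as groups. Gzmb led in controls 6 and 7, at 3.54 and 2.85 CPM per kb of exon, whereas control 5 had Gzmg at 7.19, Gzmd at 6.55, Prf1 at 6.25, Gzmf at 5.11 and Gzmb at 3.82 CPM per kb. Gzmg led in treated tumors 1 and 5, at 55.8 and 68.5 CPM per kb, and Prf1 in treated tumor 2, at 11.7 CPM per kb, where Gzmg stood at 10.2. By the mean of the control tumors Gzmb came first, at 3.40 ± 0.501 CPM per kb of exon (SD, n = 3), followed by Gzmg, Gzmd and Prf1 between 2.57 and 2.90 CPM per kb. By the mean of the treated tumors Gzmg came first, at 44.8 ± 30.6 CPM per kb (SD, n = 3), followed by Gzmd at 42.2 ± 28.5, Gzmf at 40.1 ± 28.6, Gzmc at 21.5 ± 12.1 and Gzmb at 18.7 ± 11.4. Prf1 stood at 14.9 ± 2.79, Gzme at 13.4 ± 8.82, Gzmk at 4.14 ± 2.23 and Gzma at 1.83 ± 2.49 CPM per kb. Neighbours in either order overlapped in their libraries, apart from Gzmk above Gzma in control tumors and Gzma above Gzmn in both groups.

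**Figure D3:**
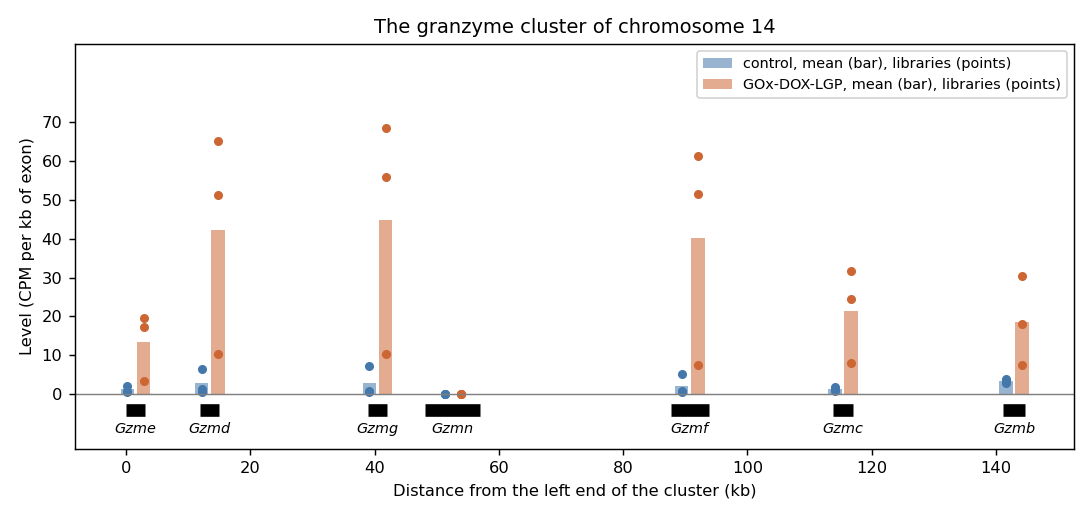
The cluster drawn to scale, with the distance from its left end in kb on the horizontal axis, genes as black blocks, and the level in CPM per kb of exon above them. Bars are group means and points are the 3 libraries of each group, with Gzmg, Gzmd and Gzmf highest in treated tumors at means of 44.8, 42.2 and 40.1 CPM per kb, and Gzmn between them close to 0.

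Gzmb made up 13.7%, 40.1% and 31.9% of the summed granzyme level per kb in controls 5, 6 and 7, and 8.21%, 14.2% and 10.6% in treated tumors 1, 2 and 5. Control 5 fell within the range of the treated tumors, and the groups overlapped. Gzmg made up 25.8%, 6.33% and 10.6% in the controls and 25.3%, 19.3% and 23.9% in the treated tumors, where control 5 again sat with the treated libraries. The counts of Gzmd, Gzme, Gzmf and Gzmg together were 3.58, 0.467 and 0.921 times those of Gzmb in controls 5, 6 and 7, and 6.29, 2.68 and 4.57 times in treated tumors 1, 2 and 5. In contrast, Gzmc counts were 0.296, 0.233 and 0.211 times those of Gzmb in the controls, and 0.840, 0.671 and 0.652 times in the treated tumors, without overlap.

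The cluster did not stand apart from the other members in every treated tumor. Its summed counts were 1.51, 2.04 and 3.24 times those of Gzma, Gzmk and Prf1 together in controls 5, 6 and 7. The ratio was 4.60 and 5.03 in treated tumors 1 and 5, above every control, but 1.23 in treated tumor 2, below every control. Gzmb counts were 0.340, 2.14 and 2.92 times those of Prf1 in the controls and 0.598, 0.360 and 1.04 times in the treated tumors, again with overlap. No test over these sums was made, because the members are not replicates.

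Across the 6 libraries, Gzmd, Gzmf and Gzmg had nearly the same profile. The root mean square (RMS) difference between their log2 CPM values, each centred on its mean, was 0.19 to 0.23. Gzme differed from Gzmd by 0.61 and Gzmc from Gzme by 0.50. Gzmb was nearest to Gzme, at 0.71, and farthest in the cluster from Gzmg, at 1.46. Gzma, Gzmk and Prf1 differed from the cluster genes by 0.89 to 2.26 and from each other by 1.18 to 2.05, so that they formed no group of their own.

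**Figure D4:**
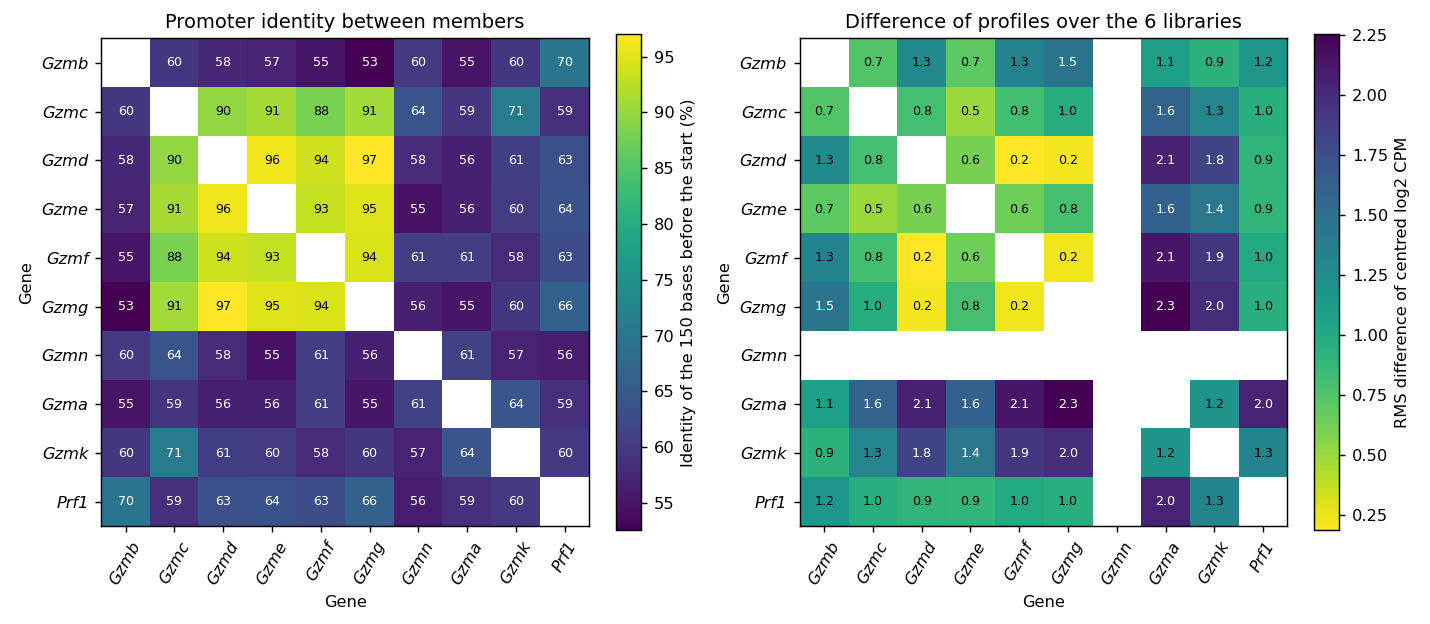
Left, percent identity of the 150 bases before the start for each pair of members. Right, RMS difference of centred log2 CPM over the 6 libraries, with Gzmn blank because it was not detected. Gzmc to Gzmg form a block of 88.0% to 97.0% identity, and the smallest profile differences, 0.19 to 0.23, lie among Gzmd, Gzmf and Gzmg.

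Part of this likeness can rest on shared sequence. Of the stretches of 50 bases in the transcripts, 21.9% of Gzmd, 20.6% of Gzme, 19.8% of Gzmg and 7.36% of Gzmf also occur in another member, against 4.14% of Gzmc, 5.57% of Gzmn and 0% of Gzma, Gzmb, Gzmk and Prf1. Gzmd shares the most, 12.0%, with Gzme. How reads that fit several genes were counted is not given in the sources used here, and the levels of Gzmd to Gzmg remain uncertain to that extent. Gzmf also overlaps exons of Gm4022, a gene on the other strand, and counting by strand is not stated either. The part of shared sequence in the results was not tested.

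The genes most like the cluster in profile, outside the members, were Car9, Fcrl6, Acod1, Ltf and ENSMUSG00000118365, which has no symbol in the files, with RMS differences of 0.68, 0.69, 0.72, 0.86 and 0.89 over the 6 libraries. Car9 encodes a carbonic anhydrase induced by low oxygen, and measured 3.29, 0.678 and 0.646 CPM in controls 5, 6 and 7 against 14.9, 10.4 and 13.0 CPM in treated tumors 1, 2 and 5. Fcrl6, an Fc receptor-like gene of cytotoxic lymphocytes, measured 1.62, 0.0848 and 0.108 CPM and 6.13, 3.53 and 5.72 CPM in the same order. Its values in controls 6 and 7 were below the lowest detectable level, 0.254 and 0.323 CPM there. In Car9 and Fcrl6, treated tumor 2 lay closer to the other treated tumors than it did in Gzmd to Gzmg. The mean profile of Gzma, Gzmk and Prf1 was most like those of Gm10722, Cd247, Pdcd1, Katnal2 and Sfrp4. The RMS differences were 0.40, 0.41, 0.43, 0.44 and 0.45. Gzma, Gzmk and Prf1 differed from each other, so their mean profile need not describe any one of them. Cd247 encodes a chain of the T cell receptor complex and Pdcd1 the receptor PD-1.

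T cell markers moved in the same direction as the members. The summed level of 14 T cell markers was 169, 90.4 and 48.4 CPM in controls 5, 6 and 7 against 227, 229 and 348 CPM in treated tumors 1, 2 and 5. Of the 14, 8 had an unadjusted p under 0.05, all higher, where 2.76% of all genes were. By adjusted p, edgeR called 0 and DESeq2 called 7, where DESeq2 called 0.994% of the genes with an adjusted p as higher. NK cell markers summed to 38.0, 15.3 and 11.9 CPM in the controls against 39.6, 22.0 and 65.1 CPM in the treated tumors, with overlap, and 0 of the 6 kept had an unadjusted p under 0.05. In the NK list, Ncr1 lay between 0.593 and 4.11 CPM and Klrb1c at most at 0.539 CPM, while Klrk1 lay between 5.17 and 21.0, Klrd1 between 3.12 and 14.2 and Klrc1 between 1.19 and 13.2 CPM. For comparison, Cd8a lay between 5.60 and 36.6 CPM and Cd8b1 between 2.26 and 20.4 CPM. The γδ T cell markers summed to 8.38 to 15.3 CPM in control and 10.1 to 16.4 CPM in treated tumors, with overlap. Sox13 of that list was at 8.65 and 10.2 CPM in controls 6 and 7 and between 2.03 and 3.67 CPM elsewhere. Its log2 fold change was -1.39, whereas Tcrg-C2 and Tcrg-C4, the other genes of the list that were kept, had 1.11 and 0.58. Trdc lay at most at 0.884 CPM and Tcrg-C2 between 1.02 and 8.62 CPM. The part of these cell types in the results was not tested. In bulk tumor RNA, more cells of a type and more RNA per cell cannot be told apart.

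Set against these markers, the members split in a way that did not follow the cluster. Gzmb overlapped between the groups, as did Gzme taken alone, and Prf1 did not. Per 100 counts of T and NK cell markers, Gzmd, Gzme, Gzmf and Gzmg together had 9.46, 2.25 and 6.24 counts in controls 5, 6 and 7 and 61.2, 11.6 and 48.2 in treated tumors 1, 2 and 5. Gzmc had 0.783, 1.12 and 1.43 against 8.18, 2.91 and 6.87, also without overlap, and Prf1 7.79, 2.25 and 2.32 against 16.3, 12.0 and 10.1. Gzmb had 2.65, 4.82 and 6.77 in the controls and 9.74, 4.33 and 10.5 in the treated tumors, so that treated tumor 2 fell below control 6. Gzmk had 0.699, 1.52 and 1.25 against 0.815, 3.06 and 1.79, and Gzma 0.0423, 0.241 and 0.891 against 0.111, 0.195 and 1.15, both with overlap.

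**Figure D5:**
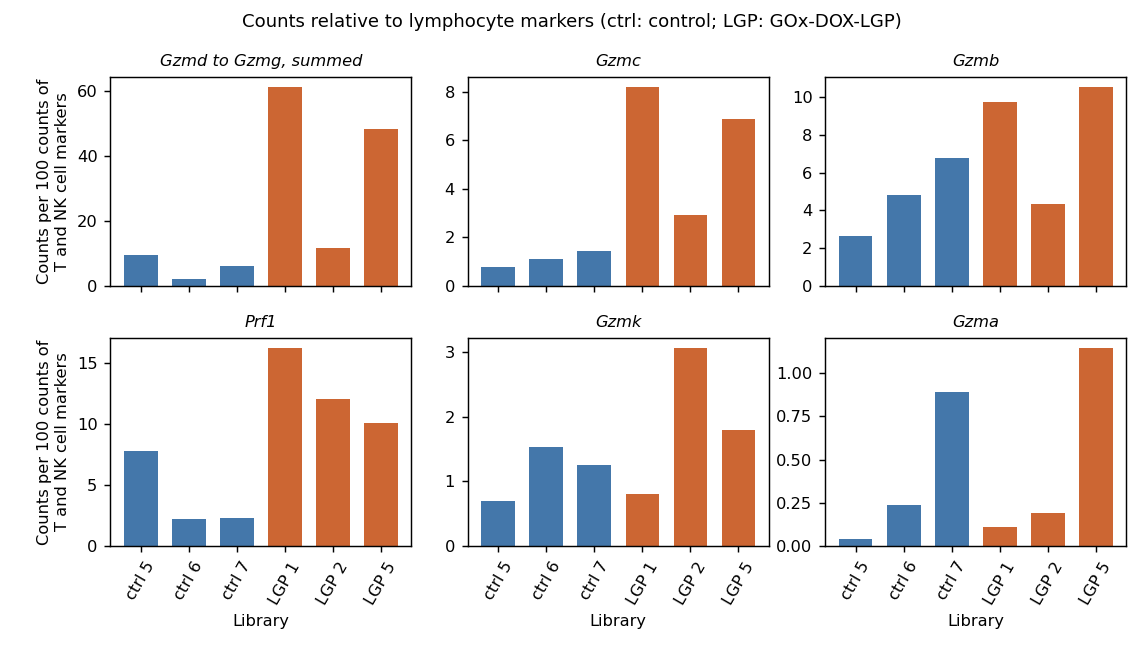
Counts of Gzmd to Gzmg summed, and of Gzmc, Gzmb, Prf1, Gzmk and Gzma, per 100 counts of the T and NK cell markers, 1 bar per library, with control libraries in blue and GOx-DOX-LGP libraries in orange. The groups are apart for the sum of Gzmd to Gzmg (at most 9.46 in controls, at least 11.6 in treated tumors), Gzmc and Prf1, and overlap for Gzmb, Gzmk and Gzma. Gzme taken alone, which is not drawn, overlapped on this scale.

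With the libraries scaled to these markers, edgeR called 4 members, Gzmc, Gzmd, Gzmf and Gzmg, when it called 0.039% of all genes as higher. In either direction it called 5135 of 15374 genes on that scale, nearly all as lower. On that scale 5 of the 8 kept members, Gzmc, Gzmd, Gzmf, Gzmg and Prf1, did not overlap, and 0.228% of all genes were separated upward. The scale lowers the median of all genes to -1.52 on the log2 scale. The fitted differences on it were 2.47 for Gzmc, 2.67 for Gzmd, 2.97 for Gzmf, 2.85 for Gzmg, 2.06 for Gzme, 1.61 for Prf1, 0.81 for Gzmb and 0.74 for Gzmk.

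Treated tumors 1 and 2 show the division within single libraries. Their T cell markers were at 227 and 229 CPM, a ratio of 0.992, yet Gzmd to Gzmg summed to 5.60 times as much in tumor 1, and Gzmc and Gzmb to 2.99 and 2.39 times as much. Prf1 was 1.44-fold higher in tumor 1, and Gzmk was at 0.283 of its level in tumor 2. NK cell markers were 1.80-fold higher in tumor 1. Among the controls, Gzmd to Gzmg together were 8.26-fold higher in control 5 than in control 6, where Gzmb was 1.08-fold and Gzmc 1.37-fold higher and T cell markers 1.87-fold. Each of these ratios compares 2 libraries and has no replicate check.

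Of 21 genes of the granule machinery, which load, move and release the cytotoxic granule, 20 were kept, 11 with higher and 9 with lower fitted levels. At an unadjusted p under 0.05 there were 5 higher and 1 lower, with 0 called by edgeR's adjusted p and 2 called higher by DESeq2. The median log2 fold change of the list was 0.09, beside 0.02 over all genes, of which 2.76% were higher and 14.3% lower at an unadjusted p under 0.05. Srgn, the proteoglycan that holds granzymes in the granule, measured 60.6, 38.7 and 23.7 CPM in controls 5, 6 and 7 against 109, 139 and 106 CPM in treated tumors 1, 2 and 5, with a log2 fold change of 1.52 ± 0.38 (standard error). Nkg7, a granule membrane gene, and Fasl, the Fas ligand, had log2 fold changes of 1.54 ± 0.50 (standard error) and 1.06 ± 0.37 (standard error), without overlap. Ctsh, a protease that processes granzyme B, was at 303 and 376 CPM in controls 6 and 7 and between 104 and 111 CPM in the other 4 libraries, the same split as the hepatocyte markers. Gzmm, for granzyme M of NK cells, is outside the members and stayed between 0.108 and 0.921 CPM, with a log2 fold change of 0.53 ± 0.76 (standard error).

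All 6 granzyme inhibitors of the list were kept, 5 with higher and 1 with lower fitted levels. Of these, 2 and 1 had an unadjusted p under 0.05, beside 2.76% higher and 14.3% lower over all genes. The intracellular granzyme B inhibitor Serpinb9 measured 50.6, 30.5 and 23.4 CPM in the controls against 60.7, 75.1 and 62.4 CPM in the treated tumors, with a log2 fold change of 0.92 ± 0.32 (standard error). Its relative Serpinb9b measured 6.32, 3.48 and 1.18 CPM against 15.7, 34.6 and 8.38 CPM, with a log2 fold change of 2.39 ± 0.77 (standard error), and was the 1 inhibitor that DESeq2 called. Serpinb6b had a log2 fold change of 1.35 ± 0.58 (standard error), and the median of the list was 1.10. Serpina3n, a serpin secreted by liver, was at 578 and 462 CPM in controls 6 and 7 and at most 118 CPM elsewhere.

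Among 13 substrates that granzymes cleave in target cells, 7 had higher and 6 lower fitted levels. At an unadjusted p under 0.05 there were 0 higher and 2 lower, beside 2.76% and 14.3% of all genes. Dffa, which restrains the apoptotic nuclease, was at 14.4, 23.0 and 24.9 CPM in the controls against 12.0, 12.2 and 11.6 CPM in the treated tumors. Ndufs3 of respiratory complex I and the pore-forming Gsdme had log2 fold changes of -1.11 and -0.76, each highest in controls 6 and 7. The median of the list was 0.0033, and DESeq2 called 0 of the 13.

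Of 13 transcription factors of cytotoxic lymphocytes, 10 had higher and 3 lower fitted levels. With an unadjusted p under 0.05, 2 were higher and 1 lower, beside 2.76% and 14.3% of all genes. Eomes, a T-box factor that promotes granzyme B and perforin transcription, measured 4.39, 4.49 and 3.98 CPM in the controls against 7.61, 11.3 and 10.0 CPM in the treated tumors. Its controls were close together, and the log2 fold change was 1.17 ± 0.28 (standard error), and adjusted p-values were 0.260 (edgeR) and 0.0014 (DESeq2). Stat4, the factor downstream of IL-12, had a log2 fold change of 1.16 ± 0.42 (standard error), without overlap. Id2 and Nfil3 had log2 fold changes of -1.50 and -0.61, and were highest in controls 6 and 7. The median of the list was 0.63.

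Of 15 cytokines and receptors that feed the killer program, 12 were kept, 9 with higher and 3 with lower fitted levels and a median log2 fold change of 0.95. Il2rb and Il2rg, the shared signalling chains of the IL-2 and IL-15 receptors, had log2 fold changes of 1.45 ± 0.56 (standard error) and 1.58 ± 0.56 (standard error). They were the 2 higher genes at an unadjusted p under 0.05, where 2.76% of all genes were higher. Il12b, a subunit of IL-12, had a log2 fold change of 2.13 ± 0.96 (standard error), without overlap. Il15ra, which presents IL-15, was at 69.4 and 84.6 CPM in controls 6 and 7 and between 11.1 and 15.4 CPM elsewhere, and was the 1 gene of the list that DESeq2 called, as lower.

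The mast cell protease genes and cathepsin G that neighbour the granzymes on chromosome 14 did not share one pattern. Of 9 listed, 6 were kept, 5 with higher and 1 with lower fitted levels and a median log2 fold change of 1.12. Mcpt8, a basophil protease, measured 1.10, 1.10 and 0.215 CPM in the controls against 2.57, 2.60 and 3.49 CPM in the treated tumors, with a log2 fold change of 1.79 ± 0.57 (standard error). edgeR gave it an adjusted p of 0.260 and DESeq2 one of 0.016. Mcpt2 ran from 0 to 36.9 CPM in the controls and from 13.0 to 97.3 CPM in the treated tumors, Mcpt1 from 0 to 35.8 and from 7.59 to 59.0 CPM, and Ctsg from 0 to 1.02 and from 0.588 to 1.46 CPM, each with overlap. Mast cell markers summed to 56.7 to 280 CPM in the controls and 62.0 to 258 CPM in the treated tumors, and neutrophil markers to 9.79 to 24.3 and 21.3 to 73.9 CPM. Their part in the results was not tested.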

How the data were processed

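Total RNA of 6 tumors was sequenced from KAPA mRNA libraries. The authors deposited raw counts per gene, used here, and signal values, those counts scaled by a factor for each library, which were used for gene symbols. The supporting methods name TopHat and HTSeq, whereas the submitters' processing notes name Trimmomatic 0.38, HISAT2 2.1.0 and featureCounts 2.0.0. The genome build and the use of strand are not given in the sources used here. Positions come from GENCODE M21 and promoters from RefSeq (GRCm38.p6), where all 10 members matched.

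Counts were filtered with filterByExpr, scaled with TMM and tested with edgeR 4.0.16 (robust quasi-likelihood test, all 6 libraries, no covariates, Benjamini-Hochberg over all genes kept, threshold 0.05) in R 4.3.3. Alternatives used DESeq2 1.42.0, limma 3.58.1, other scalings and filters, a hepatocyte covariate and left-out libraries. Log2 CPM used a prior count of 2. The test was run on simulated data as a check, whose outcome is not reported here. All members were named. Of each pathway list, the 4 genes with the smallest p, and Gzmm for its role, were named, with the 5 genes most like each profile, and 1 gene so selected is not reported here. The members and lists were chosen with earlier results of these data known. Leaving out both controls 6 and 7 was chosen after seeing the data. Figures were drawn with matplotlib in Python.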

Additional observations from a re-analysis of the deposited data

How the results depend on the processing

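Every fitted difference of the 8 kept members was positive in all 15 alternatives, and the median of the cluster lay between 2.57 and 4.99. Members called numbered 0 in the reported fit, where 0% of all genes were called. They numbered 7 with DESeq2, which called 0.994% of the genes with an adjusted p as higher, and 7 with limma voom, which called 29.2%. On the scale of T and NK cell markers they numbered 4, where 0.039% of all genes were called higher and 5135 of 15374 in either direction. Leaving out single libraries gave between 0 and 8, where only the fit without control 5 gave 8, and that fit called 22.1% of all genes as higher. On the marker scale 5 members were without overlap, and the median of Gzmk and Prf1 was 1.17. That median lay between 1.97 and 3.32 when single libraries were left out, the latter without control 5. Genes called in the pathway lists numbered 0 in the reported fit. With DESeq2 they were 2 of the granule machinery, 1 inhibitor, 1 transcription factor, 1 cytokine input and 1 locus neighbour. Leaving out single libraries gave 0 to 13 of the granule machinery, 0 to 5 inhibitors, 0 to 8 substrates, 0 to 10 transcription factors, 0 to 9 cytokine inputs and 0 to 3 locus neighbours, each above 0 only without control 5. Over all genes and in either direction, DESeq2 called 1516 of 15374 and the fit without control 5 called 7739 of 16249. The cause of the dependence on control 5 was not tested. Scaling to library totals shifted the median of all genes to 0.51. The fit with the hepatocyte covariate called 0 members and 0% of all genes. Its median log2 fold changes were 3.51 for the cluster and 1.99 for Gzmk and Prf1. No paired analysis was possible because the groups share only the replicate number 5. Depth limits Gzma and Gzmn.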
